A study of Mus musculus with 6 samples.

Results

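The genes described here are 37 genes of the spindle checkpoint, the kinetochore and mitosis. They were taken by name from a fixed list, with older symbols allowed (Sgo1 is also known as Sgol1 and Sgo2a as Sgol2), and all 37 were found among the 25860 genes of the count table. RNA-seq was run on lung that looked normal, in 3 mice of genotype RAG1-/- (replicates 1, 2 and 3) and 3 of genotype RAG1-/-Sgo1-/+ (replicates 4, 5 and 6). All mice were 12 months old and untreated, with 1 library per mouse. By label, every mouse of both groups lacked Rag1, which lymphocytes need to recombine their antigen receptor genes (the reads of RAG1-/- replicate 2 go against this, as given with the library values), and the second group also carried a mutant allele of Sgo1 beside the normal one, in every tissue. The groups came from the second generation of a cross between the parental lines, and no library of a mouse with working Rag1 was part of the comparison. The question was whether loss of an Sgo1 copy, a genotype used as a model of chromosome instability, went with other levels of the mitotic machinery in normal-looking lung.

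In mitosis, kinetochores assembled on centromeric chromatin bind spindle microtubules, and unattached kinetochores recruit the Bub and Mad proteins that hold back the anaphase promoting complex. Shugoshin proteins, encoded by Sgo1 and Sgo2a, protect the cohesin that keeps sister centromeres together until anaphase. Transcripts of most of these genes peak in late cell cycle phases, so in an adult lung, where few cells divide, they are usually low. In whole tissue, fewer dividing cells and less RNA per dividing cell cannot be told apart.

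Many genes of this class share promoter elements for expression in late cell cycle: the CCAAT box, bound by NF-Y, and the cell cycle genes homology region (CHR), TTTGAA, bound by the DREAM and MuvB complexes. Promoters of 31 of the 37 genes were matched by gene identifier in RefSeq (GRCm38.p6), with the first one listed used for each gene. Each was 300 bases long, with 250 bases before the start and 50 after it. CCAAT was found on either strand in 23 of the 31 promoters (74.2%), against 37.9% of all 27025 promoters of that length. TTTGAA was found on either strand in 20 (64.5%), against 18.1% of all, and matches of the 2 motifs were allowed to overlap. Both motifs were present in 18 (58.1%), against 7.12% of all. On the gene strand alone, CCAAT was in 51.6% of the 31 and 21.7% of all promoters, and TTTGAA in 48.4% and 10.1%. The 6 genes not matched were Spc24, Ccna2, Kif20a, Incenp, Aurkb and Tpx2.

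**Figure D1:**
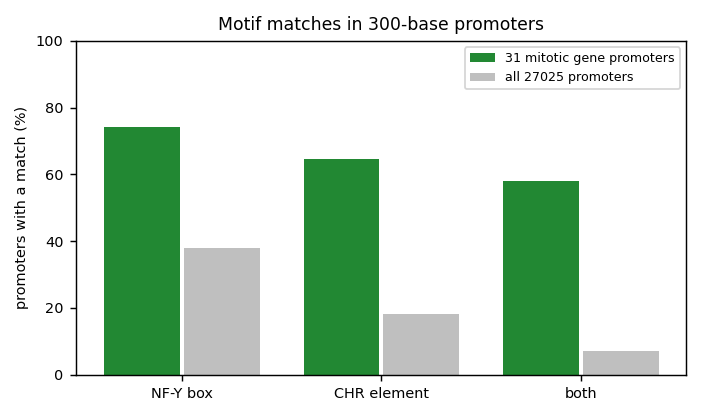
Share of promoters (y axis, %) with at least 1 match to CCAAT (NF-Y box), to TTTGAA (CHR element) or to both, on either strand, in the 31 mitotic gene promoters (green) and in all 27025 promoters (grey). The shares are 74.2%, 64.5% and 58.1% in the mitotic genes and 37.9%, 18.1% and 7.12% over all.

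The 150 bases before the start are printed 5' to 3' on the gene's strand for Sgo1, the targeted gene, and for 6 genes in which both motifs lie before the start. They are shown so that the spacing of the motifs can be read. Capitals mark CCAAT or its reverse ATTGG, and TTTGAA or its reverse TTCAAA. In GRCm38.p6 the windows lie at chr17:53689316-53689465 for Sgo1, chr7:131560220-131560369 for Bub3, chr10:69352913-69353062 for Cdk1, chr4:118437344-118437493 for Cdc20, chr15:102296143-102296292 for Espl1, chr19:37376232-37376381 for Kif11 and chr11:99024190-99024339 for Top2a. Bub3, Espl1 and Kif11 are on the plus strand and the other 4 on the minus strand.
Sgo1: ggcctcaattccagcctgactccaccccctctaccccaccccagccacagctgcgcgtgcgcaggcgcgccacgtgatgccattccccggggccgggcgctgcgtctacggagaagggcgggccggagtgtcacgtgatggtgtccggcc
Bub3: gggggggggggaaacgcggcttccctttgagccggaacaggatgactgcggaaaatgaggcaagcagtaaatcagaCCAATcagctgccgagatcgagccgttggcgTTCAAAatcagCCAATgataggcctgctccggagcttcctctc
Cdk1: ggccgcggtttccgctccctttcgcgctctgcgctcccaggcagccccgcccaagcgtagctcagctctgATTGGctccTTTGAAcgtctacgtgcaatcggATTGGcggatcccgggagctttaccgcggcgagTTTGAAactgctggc
Cdc20: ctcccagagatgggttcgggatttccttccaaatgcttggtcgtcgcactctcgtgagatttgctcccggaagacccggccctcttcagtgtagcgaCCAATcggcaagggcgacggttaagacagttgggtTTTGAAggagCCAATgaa
Espl1: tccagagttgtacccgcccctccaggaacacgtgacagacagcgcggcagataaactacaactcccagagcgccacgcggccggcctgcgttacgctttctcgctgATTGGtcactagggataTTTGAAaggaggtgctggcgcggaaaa
Kif11: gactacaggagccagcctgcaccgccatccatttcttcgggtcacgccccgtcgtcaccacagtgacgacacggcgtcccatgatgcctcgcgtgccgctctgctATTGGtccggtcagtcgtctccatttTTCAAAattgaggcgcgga
Top2a: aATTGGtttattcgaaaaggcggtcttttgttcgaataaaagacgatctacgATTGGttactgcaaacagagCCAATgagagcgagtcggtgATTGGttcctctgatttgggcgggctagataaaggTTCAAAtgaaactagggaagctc
In the Sgo1 window neither motif was matched, and its promoter held 1 CCAAT match in the 50 bases after the start. Top2a, which encodes DNA topoisomerase II alpha, held 4 CCAAT matches and 1 TTTGAA match in the printed window. A match describes the letters only, and the values below were read without regard to it.

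Between 3205822 (RAG1-/-Sgo1-/+ replicate 6) and 9366774 (RAG1-/- replicate 1) reads were counted on genes per library, and 3 reads, taken as the smallest amount detected, correspond to 0.320 to 0.936 CPM (reads scaled to that total). Lung epithelial markers summed to between 78549 and 100027 CPM, as the tissue label implies. Several libraries stood apart in ways the groups do not describe. RAG1-/- replicate 2 held B cell reads that a RAG1-/- mouse should not have: all 7 B cell markers were highest there (summed 97.2 CPM, against 7.78 to 13.7 in the other 5 libraries), with 1853 reads of Igkc, the immunoglobulin kappa constant gene. RAG1-/- replicate 1 had an adipocyte marker sum of 709 CPM against 59.5 to 112 elsewhere, and it alone had Xist reads (7717, against 4 to 8) and next to none of Ddx3y (2 reads), so that it reads as the only female. RAG1-/-Sgo1-/+ replicate 6 had an alveolar macrophage marker sum of 6646 CPM against 533 to 1053, carried mainly by Chil3 (19501 reads), with 4 of the 8 markers highest there and none at 0 in every library. T cell markers summed to 26.7 CPM in RAG1-/- replicate 2 and 19.7 CPM in RAG1-/-Sgo1-/+ replicate 6, against 1.71 to 4.63 CPM in the rest. Of the 7 T cell markers, 5 were highest in replicate 2 and 2 in replicate 6, and Cd3d had 14 reads in replicate 2 and 2 in replicate 6. Of the cell type markers, Ptcra and Rag2 of thymocytes, Ly6g, Elane and Mpo of neutrophils and their precursors, Rhag of erythroid precursors and Cdc20b of multiciliated cells were at 0 in all 6 libraries.

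No mitotic gene was called different between the groups. Of the 37 genes, 36 had at least 10 reads over the 6 libraries and were tested, and Ccnb1, with 7 reads, was not. With the edgeR quasi-likelihood test at an adjusted *P* under 0.05 and at least 2-fold, 0 of the 36 and 0 of all 17231 genes tested (0.0%) were called, and the smallest adjusted *P* was 0.832. At an unadjusted *P* under 0.05 there were also 0 mitotic genes, against 5.66% of all genes tested (3.15% higher and 2.52% lower in RAG1-/-Sgo1-/+). DESeq2 and limma-voom likewise called 0 of them and gave 0 with an unadjusted *P* under 0.05 (4.13% and 4.86% of all genes tested). The edgeR exact test called 0 and gave 1, Nuf2 (4.92% of all genes tested). At an unadjusted *P* under 0.10 there were 4 (11.1%, against 11.9% of all): Espl1, Nuf2, Spc25 and Sgo2a. A fitted change of at least 2-fold was seen in 2, Cdca8 and Nuf2, against 6.36% of all genes.

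The fitted log2 fold changes ran from -0.84 (Spc25) to 1.20 (Cdca8), with a median of 0.087 against 0.034 over all genes tested. They were above 0 for 25 genes and below 0 for 11, and 54.9% of all genes tested were above 0. With TMM normalization 21 of the 36 were above 0, with a median of 0.054 (-0.0006 over all genes tested). Without RAG1-/-Sgo1-/+ replicate 6 there were 18 with a median of -0.026 (0.018 over all genes tested). Without RAG1-/- replicate 2, the library with B cell reads, 24 were above 0 with a median of 0.35 (0.040 over all genes tested). The depth sets how firmly this can be read. The genes had a median of 135 reads over the 6 libraries, against 671 for all genes tested, 12 had fewer than 100, and 6 of the 37 had at least 1 library with 3 reads or fewer. The 95% interval of the fitted change lay within 2-fold in both directions for 7 genes (among them Bub3, Pttg1 and Kif20a) and reached 2-fold for the other 29, so for most of these genes a change of that size could not be told from no change. In simulated tables with the depths of these libraries, the same call recovered 24% of 200 genes changed 2-fold and 97% of 200 changed 4-fold. A call needed a fitted change of at least 2-fold, which limits recovery at that size. The changed genes were drawn from all genes above a minimum read total. The same spread was set for every gene and was not estimated from these libraries, and the counting of both mates of a pair was not simulated. These shares are therefore not the recovery for the mitotic genes, whose read totals are lower.

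**Figure D2:**
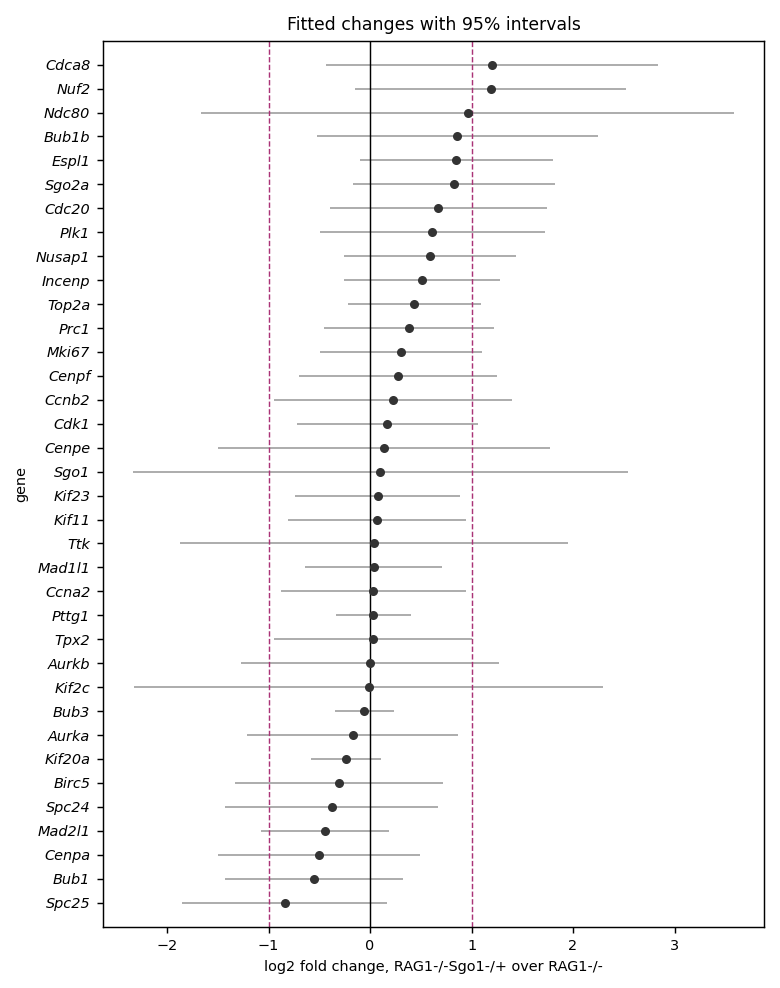
Fitted log2 fold change of RAG1-/-Sgo1-/+ over RAG1-/- (x axis) for each of the 36 mitotic genes tested (y axis), with its 95% interval from 3 libraries per group. The solid line marks no change and the dashed lines 2-fold, and all 36 intervals cross 0.

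For Sgo1 itself, the RAG1-/- libraries gave 6, 2 and 4 reads and the RAG1-/-Sgo1-/+ libraries gave 6, 0 and 2, or 0.55 ± 0.13 CPM and 0.61 ± 0.61 CPM (mean ± SD, n = 3 each). Both groups lay around the level of 3 reads and overlapped, and the difference (log2 fold change 0.10, SE 1.09, exact permutation *P* = 0.9) has an interval from -2.34 to 2.54 that holds both loss of a copy and no loss. The sign rests on single libraries: the value was -1.07 without replicate 4 and 0.73 without replicate 5. The labels could therefore not be checked from this gene. Rag1 had reads in every library, with 24, 10 and 16 against 12, 8 and 8. These are totals per gene, which do not show whether part of the gene is missing. Sgo2a, the shugoshin of the second gene, had 26, 10 and 20 reads against 35, 20 and 10, or 2.78, 2.02 and 3.03 CPM in RAG1-/- against 7.07, 3.70 and 3.12 CPM in RAG1-/-Sgo1-/+. The groups did not overlap, by a margin of 3.03 to 3.12 CPM, and replicate 4 was the high library (log2 fold change 0.83, SE 0.45, unadjusted *P* = 0.094, adjusted *P* = 0.832 with edgeR). With TMM library sizes the groups of Sgo2a overlapped. Its exons share 2455 bases with Kctd18 on the opposite strand in GENCODE M21, and Kctd18 had 192, 128 and 83 reads against 90, 90 and 74. The kit used marks no strand, so that reads from this stretch cannot be assigned to either gene.

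The checkpoint genes encode the sensors and effectors of the wait signal. They held 78.0, 92.1 and 96.9 CPM in sum in RAG1-/- and 79.4, 78.9 and 92.3 CPM in RAG1-/-Sgo1-/+, and the groups overlapped. Bub3, a shared subunit of the Bub1 and BubR1 complexes, was the most counted gene of the 37, with 54.0, 66.3 and 64.0 CPM against 55.4, 59.1 and 62.7 CPM. Its groups overlapped and its spread was the smallest of all (coefficient of variation over the 6 libraries 8.15%), with a log2 fold change of -0.06 (SE 0.13, interval -0.35 to 0.24). Bub1, the kinase that places shugoshin at the centromere by phosphorylating histone H2A, had 6.62, 4.85 and 8.32 CPM against 6.06, 2.59 and 4.99 CPM (log2 fold change -0.55, SE 0.39). Mad2l1, the effector that binds Cdc20, had 7.69, 12.9 and 13.3 CPM against 7.88, 8.71 and 8.11 CPM (log2 fold change -0.44, SE 0.28). RAG1-/- replicate 1 lay with the RAG1-/-Sgo1-/+ libraries for Mad2l1, and without it the unadjusted *P* was 0.032 and the adjusted *P* 0.702 with edgeR. Bub1b, which encodes BubR1, had 2.46, 1.21 and 2.12 CPM against 2.83, 1.48 and 6.86 CPM. Replicate 6 was far above the rest, and without that library the fitted log2 fold change went from 0.86 to 0.13. Mad1l1, the kinetochore anchor of Mad2, lay between 5.66 and 9.05 CPM in all 6 libraries, and Ttk, the Mps1 kinase at the head of the pathway, had 2 to 6 reads.

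The chromosomal passenger complex places Aurora B at the inner centromere, where it corrects faulty attachments. Its 4 genes summed to 13.6, 20.002 and 11.3 CPM in RAG1-/- and 19.0, 15.9 and 20.6 CPM in RAG1-/-Sgo1-/+. Cdca8, which encodes Borealin, showed the highest fitted change of all 36 genes from 12, 10 and 4 reads against 24, 17 and 2. Replicates 4 and 5 were the high libraries and replicate 6, of the same genotype, was at the level of the lowest RAG1-/- library, so that the groups overlapped (log2 fold change 1.20, SE 0.73). Left without replicate 6, Cdca8 reached 1.63 with an unadjusted *P* of 0.028 and an adjusted *P* of 0.900 (edgeR). The kinase Aurkb had 1.71, 4.04 and 1.82 CPM against 2.42, 1.67 and 3.43 CPM, with a fitted log2 fold change of -0.00. The scaffold Incenp ran from 4.09 to 10.9 CPM and Birc5, or survivin, from 1.62 to 5.61 CPM, both with overlapping groups.

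At the kinetochore, Cenpa is the histone variant that marks the centromere, the Ndc80 complex (Ndc80, Nuf2, Spc24 and Spc25) grips microtubules, Cenpe is a motor and Cenpf an outer kinetochore protein. The 7 genes summed to 18.3, 25.7 and 23.3 CPM against 25.5, 18.7 and 16.2 CPM. The subunits of the Ndc80 complex did not lie on one side. Nuf2 had 10, 4 and 8 reads against 16, 8 and 8, or 1.07, 0.81 and 1.21 CPM against 3.23, 1.48 and 2.50 CPM. The groups did not overlap, but 3 of the 6 counts are 8 reads and differ in CPM only through library size (log2 fold change 1.19, SE 0.60, unadjusted *P* = 0.075 with edgeR). Spc25 went the other way, with 4.27, 4.65 and 4.39 CPM against 1.21, 3.15 and 3.12 CPM. Every RAG1-/- library was above every RAG1-/-Sgo1-/+ library (log2 fold change -0.84, SE 0.45, unadjusted *P* = 0.094, adjusted *P* = 0.832 with edgeR). Spc24, its partner in the complex, overlapped between groups (2.42 to 4.99 CPM against 1.87 to 4.04 CPM), and Ndc80 had 0 to 6 reads. Cenpa had 4.27, 7.88 and 7.57 CPM against 6.46, 5.001 and 1.87 CPM, with its lowest value in replicate 6, the library in which many other mitotic genes were highest. Cenpe and Cenpf overlapped, with 0.43 to 3.23 CPM and 2.72 to 7.68 CPM over the 6 libraries.

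The kinases and cyclins that drive entry into mitosis were Cdk1, Ccna2, Ccnb1, Ccnb2, Aurka and Plk1. Their sum was 14.0, 20.6 and 23.9 CPM against 16.6, 15.6 and 32.1 CPM. Cdk1, the catalytic partner of the cyclins, was level at 3.10 to 3.63 CPM in 5 libraries and 4.99 CPM in replicate 6. Plk1, the Polo kinase, had 1.92, 2.83 and 2.72 CPM against 2.63, 2.78 and 6.24 CPM. Ccnb2, a B-type cyclin, had 2.14, 3.03 and 3.03 CPM against 2.02, 2.22 and 5.61 CPM. For Cdk1, Plk1 and Ccnb2 it was replicate 6 that stood above, and the other 2 libraries of its genotype lay within or near the RAG1-/- range. Ccna2, or cyclin A2, ran from 4.82 to 11.9 CPM and Aurka, the spindle pole kinase, from 1.92 to 4.54 CPM. Ccnb1, or cyclin B1, was counted with 0, 2 and 5 reads in RAG1-/- and 0 in each RAG1-/-Sgo1-/+ library. In the shallowest of these, 3 reads correspond to 0.936 CPM, so a count of 0 there sets no tight limit. Ccnb1 has 4 near-identical processed copies in the genome (aligned over up to 1294 bases), and how reads that fit several places were counted is not given in the sources used here, so its level is uncertain.

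Anaphase starts when Cdc20 activates the anaphase promoting complex, securin (Pttg1) is destroyed and separase (Espl1) cuts cohesin. None of the 3 genes passed the test. Pttg1 had 37.3, 43.4 and 43.0 CPM against 33.3, 49.1 and 43.7 CPM, with overlapping groups and a log2 fold change of 0.03 (SE 0.17, interval -0.34 to 0.40). Espl1 had 3.42, 2.02 and 3.33 CPM against 3.23, 6.11 and 6.86 CPM. Replicates 5 and 6 were high and replicate 4 lay within the RAG1-/- range (log2 fold change 0.85, SE 0.43), and the unadjusted *P* of 0.075 was the smallest of the 36 genes with edgeR. Without replicate 4 it was 0.028, with an adjusted *P* of 0.580. Cdc20 had 3.52, 2.02 and 2.57 CPM against 2.83, 3.52 and 7.17 CPM, again with replicate 6 above the rest.

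Motors and microtubule binders build the spindle and the midzone. The 7 genes summed to 47.2, 48.5 and 46.5 CPM against 46.3, 43.7 and 53.7 CPM. Kif20a, a kinesin of the central spindle, had 26.16, 24.65 and 23.61 CPM against 22.02, 20.75 and 20.28 CPM. All RAG1-/- libraries were above all RAG1-/-Sgo1-/+ libraries, with a small difference (log2 fold change -0.24, SE 0.15, unadjusted *P* = 0.15, adjusted *P* = 0.848 with edgeR, interval -0.58 to 0.10). Its exons share 1271 bases with Cdc23, a subunit of the anaphase promoting complex on the opposite strand, so that reads of the 2 genes cannot be told apart there, and Cdc23 had 31.2, 29.9 and 32.5 CPM against 36.2, 30.9 and 37.7 CPM. Nusap1, a spindle microtubule binder, had 2.88, 4.44 and 4.54 CPM against 5.05, 4.82 and 8.11 CPM. The groups did not overlap (log2 fold change 0.59, SE 0.38, unadjusted *P* = 0.15 with edgeR), and 172 bases of its exons are shared with Oip5, which had 0 to 10 reads per library. Kif11 (2.83 to 5.61 CPM), Kif23 (3.03 to 5.15 CPM), Tpx2 (2.83 to 6.55 CPM) and Prc1 (4.08 to 8.89 CPM) overlapped between groups, and Kif2c had 2 to 8 reads. Kif11 moves spindle poles apart, Kif23 and Prc1 organise the midzone, Tpx2 activates Aurora A and Kif2c removes tubulin from microtubule ends.

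Top2a and Mki67, the gene of the Ki-67 proliferation marker, are the usual measures of cycling cells. Top2a had 6.83, 8.08 and 11.2 CPM against 15.4, 9.45 and 10.3 CPM (log2 fold change 0.43, SE 0.29), and Mki67 had 12.2, 21.0 and 19.98 CPM against 20.6, 11.5 and 34.3 CPM (log2 fold change 0.31, SE 0.36). In neither gene did the groups separate, and their highest values fell in different libraries, replicate 4 for Top2a and replicate 6 for Mki67. Without replicate 6 the log2 fold change of Mki67 was -0.13.

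**Figure D3:**
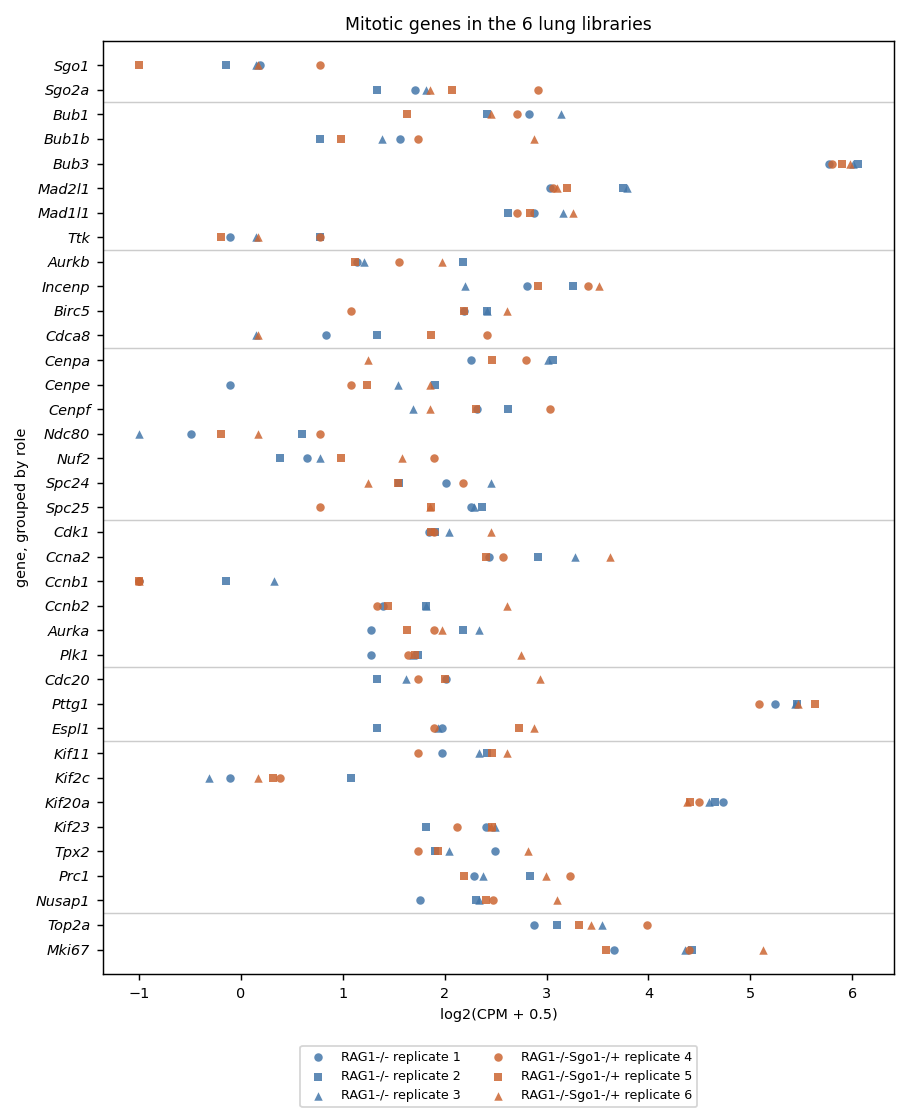
Level of each of the 37 genes (y axis, grouped by role in the order of the text) as log2(CPM + 0.5) (x axis) in the 3 RAG1-/- (blue) and 3 RAG1-/-Sgo1-/+ (orange) libraries, 1 point per library. Bub3, Pttg1 and Kif20a stand above the rest with narrow spread, and many low genes have the orange triangle of replicate 6 at the right.

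In total, the groups did not overlap for 5 of the 36 genes, against 11.8% of all genes tested. Sgo2a, Nuf2 and Nusap1 were higher in RAG1-/-Sgo1-/+ (6.24% of all genes tested were apart in that direction) and Spc25 and Kif20a were lower (5.54%). With TMM library sizes 4 genes were apart, Sgo2a no longer among them (11.9% of all genes tested), and after thinning 4 were apart (11.6%). Exons of Sgo2a, Kif20a and Nusap1 overlap another gene. Over the 37 genes, 20 had neither an exon shared with another gene nor a near-identical copy of at least 150 bases, and 7 shared at least 150 exonic bases with a gene on the opposite strand. Beside Sgo2a, Kif20a and Nusap1 these were Prc1 (911 bases with Rccd1), Ccna2 (510 with Exosc9), Cdca8 (232) and Plk1 (156). Near-identical pseudogene copies were found for Ccnb1, Mad2l1 (454 bases), Ndc80, Mki67, Cenpe and Cenpf, and the values of these genes are uncertain to that extent.

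Levels between genes were compared per kilobase of the longest coding transcript, as CPM per kb averaged over the 6 libraries. Pttg1 (24.9) and Bub3 (17.6) were highest, followed by Kif20a (6.24) and Cenpa (3.76). The level of Kif20a is uncertain, since reads from the 1271 exonic bases it shares with Cdc23 cannot be assigned to either gene. Sgo1 (0.160) and Ccnb1 (0.078) were the lowest. The reads were as uneven: Bub3, Pttg1 and Kif20a took 46.1% of the 9278 reads counted on the 37 genes. Pttg1 matched neither motif in its promoter, Bub3 matched both, and Kif20a was among those without a promoter in the table.

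The sum over all 37 genes was 238, 286 and 286 CPM in RAG1-/- and 270, 256 and 321 CPM in RAG1-/-Sgo1-/+. The means were 269.7 ± 27.8 and 282.5 ± 34.1 CPM (SD, n = 3 each), a ratio of 1.05, and the groups overlapped. Without Bub3, Pttg1 and Kif20a the sums were 120, 152 and 155 CPM against 160, 127 and 194 CPM, a ratio of 1.13. In both sums replicate 6 was the highest library and RAG1-/- replicate 1 the lowest. By role, the ratio of group means ran from 0.90 for the kinetochore genes to 1.66 for Sgo1 and Sgo2a, and the latter was the only role whose sums did not overlap, with 3.42, 2.42 and 3.63 CPM against 8.28, 3.70 and 3.74 CPM. That margin was smaller than the spread within either group. Sgo2a holds most of these reads, and its groups overlapped with TMM library sizes.

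**Figure D4:**
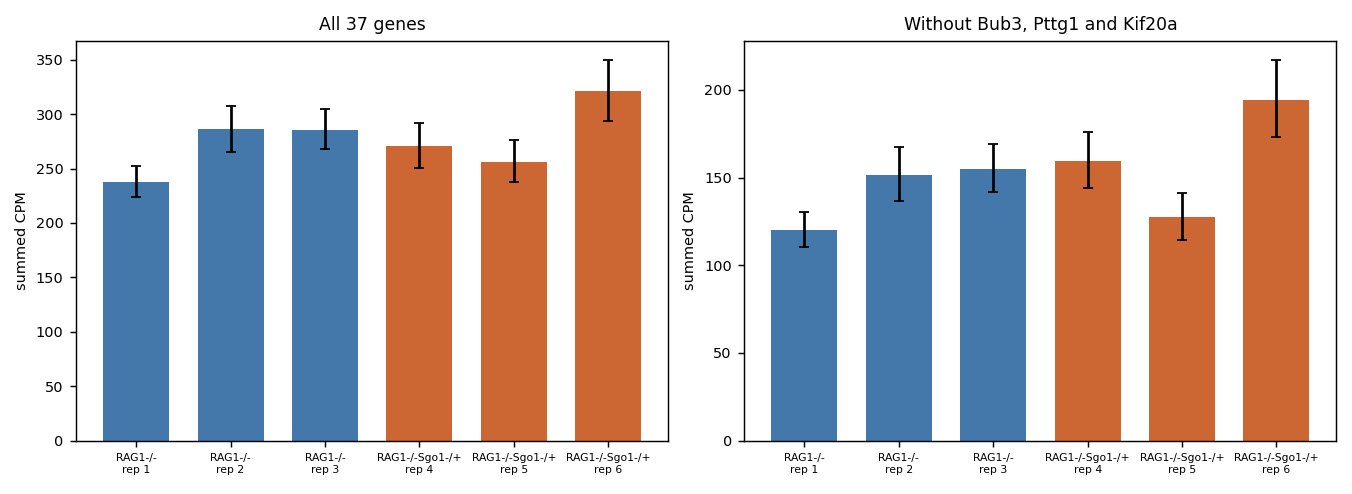
Summed CPM per library (bars, y axis from 0) of all 37 genes (left) and without the 3 most counted genes (right), RAG1-/- in blue and RAG1-/-Sgo1-/+ in orange. Error bars are 95% Poisson intervals on read pairs and cover counting error only, and replicate 6 is highest and replicate 1 lowest in both panels.

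The values of these genes were unevenly spread over the libraries. Of the 36 genes tested, 14 (38.9%) had their highest CPM in RAG1-/-Sgo1-/+ replicate 6, against 25.4% of all genes tested and 28.4% of the 5382 genes with a like number of reads (39 to 481 over the 6 libraries). In replicate 4 it was 8 genes, in RAG1-/- replicate 2 7 genes and in replicate 3 5 genes, and replicates 1 and 5 had 1 each. In replicate 6, 6 genes were at least 1.5-fold above every other library (Bub1b, Plk1, Cdc20, Ccnb2, Mki67 and Nusap1, from 1.61-fold to 2.43-fold), against 5.31% of all genes tested and 7.93% of those with a like number of reads. Replicate 6 is also the shallowest library, the one with high alveolar macrophage markers, and 1 of the 2 with a raised T cell marker sum. The part of any of these in the values was not tested. Of the 7 lists of other cell cycle genes described last, the summed level was highest in that library for the DNA replication genes (242 CPM, against 197 to 235 CPM elsewhere), the condensin genes, the checkpoint accessory genes and the other mitosis genes. It was lowest there for the anaphase promoting complex (627 CPM, against 640.2 to 679 CPM) and the PP2A genes. Over the 36 genes the coefficient of variation across the 6 libraries had a median of 37.7%, against 32.7% for genes with a like number of reads.

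**Figure D5:**
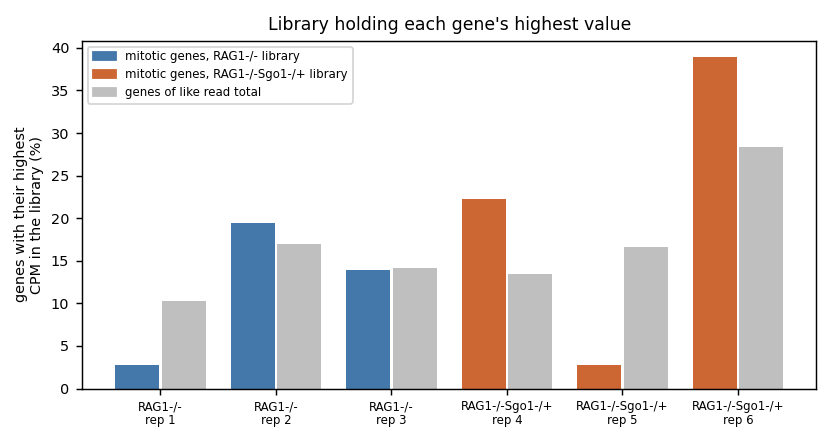
Share of genes (y axis, %) with their highest CPM in each of the 6 libraries (x axis), for the 36 mitotic genes tested (coloured by genotype) and for the 5382 genes with a like number of reads (grey). RAG1-/-Sgo1-/+ replicate 6 holds 38.9% of the mitotic genes and 28.4% of the others.

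A further 121 genes of mitosis and the cell cycle, in 7 lists chosen by function, were read beside these. Of the 119 tested, 0 were called with edgeR, 2 had an unadjusted *P* under 0.05, and the median log2 fold change was 0.042, with 68 above 0 and 51 below. Over all genes tested, 5.66% had an unadjusted *P* under 0.05 with edgeR and 54.9% were above 0. Among 17 subunits and partners of the anaphase promoting complex, 6 were above 0 and 11 below, and Cdc27, a core subunit, had 70.9, 78.8 and 97.0 CPM against 70.1, 62.2 and 60.5 CPM (log2 fold change -0.35, SE 0.15, unadjusted *P* = 0.038, adjusted *P* = 0.832 with edgeR). Among 9 genes of the PP2A phosphatase that shugoshin brings to centromeres, 7 were above 0, and the regulatory subunit Ppp2r5b had 29.0, 21.0 and 29.7 CPM against 44.0, 29.6 and 35.2 CPM (log2 fold change 0.44, SE 0.20, unadjusted *P* = 0.047, adjusted *P* = 0.832 with edgeR). For Cdc27 every RAG1-/- library was above every RAG1-/-Sgo1-/+ library, by a narrow margin, and for Ppp2r5b the groups overlapped. The sums of the 21 inner kinetochore and KMN network genes (217 ± 16.5 against 233 ± 19.1 CPM), of the 8 condensin genes (190 ± 8.49 against 203 ± 9.46 CPM) and of the 20 DNA replication genes (214 ± 19.0 against 219.6 ± 22.5 CPM, SD, n = 3 each) overlapped as well. In each of these 3 lists 0 genes had an unadjusted *P* under 0.05.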

How the data were processed

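Lung RNA of 3 RAG1-/- and 3 RAG1-/-Sgo1-/+ mice was made into TruSeq RNA v2 libraries, which mark no strand, and sequenced on an Illumina MiSeq as paired 150-base reads. The authors deposited read counts per gene, made with GeneSifter on mouse Build 37.2 per the file headers and not normalized. Each library stands there in 2 columns of equal values, of which the first was used. BWA and edgeR are named in the submitters' processing notes, and the treatment of reads with several matches is not given in the sources used here. A further deposited list holds the results of the authors' own comparison and was not used. Of counts from 1 to 20, 80.5% were even, as were 72.2% of the non-zero values of the 37 genes. Counting both mates of a pair gives such values, so the Poisson intervals of summed CPM were computed on pairs. Those intervals and the floors cover counting error only. The intervals of the fitted fold changes were computed on the counts as deposited and include the spread between mice.

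Samples were grouped by the labels. The groups were compared by the edgeR 4.0.16 quasi-likelihood test (R 4.3.3) on genes with a total of at least 10 counts, with the total count as library size. Calls needed at least 2-fold and P under 0.05 after Benjamini-Hochberg adjustment over all genes tested. Fold changes are those of the fit. The SE is the log2 fold change over the square root of F, and 95% intervals use the test's degrees of freedom. The exact permutation test of CPM is two-sided and cannot go below 0.1 with 3 against 3. P-values measure the spread between these mice. Transcript lengths, exon overlaps and copies (BLAST 2.17.0, at least 95% identity over 150 bases) came from GENCODE M21 on GRCm38, and promoters from RefSeq on GRCm38.p6. The counts are on the earlier build, and no coordinates were converted. The workflow was tested on simulated data.

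Of the gene identifiers, 93.0% were matched to a symbol. The genes and lists were chosen with earlier results of these data known. All 37 genes could be named. Of other mitosis lists those with an unadjusted P under 0.05 were named, and of the cell type lists those at least 4-fold above every other library. Markers at 0 in all 6 libraries were named after their values were seen. Rag1, Xist and Ddx3y served as checks. Genes that share exons with a named gene (Kctd18, Cdc23, Oip5, Rccd1, Exosc9) were named for that reason. Marker sums of T cells (1.71 to 26.7 CPM in RAG1-/- and 3.23 to 19.7 CPM in RAG1-/-Sgo1-/+), plasma cells (414 to 997 and 439 to 515 CPM), thymocytes (30.4 to 43.0 and 26.1 to 30.3 CPM), natural killer cells (16.4 to 56.3 and 13.4 to 28.1 CPM), neutrophils (102 to 248 and 76.4 to 183 CPM), erythroid precursors (1881 to 4837 and 1461 to 2478 CPM), endothelium (1432 to 1477 and 1115 to 1424 CPM) and multiciliated cells (348 to 521 and 437 to 657 CPM) were also read. Alternatives were equal library sizes, TMM, size factors of DESeq2, filterByExpr, no filter, DESeq2 1.42.0, the edgeR exact test, limma-voom (limma 3.58.1), thinning to the shallowest library, halved counts, a prior count of 2, the adjusted P alone, the sum without Top2a and Mki67, motifs on the gene strand and each library left out. Leaving out RAG1-/- replicate 2 and RAG1-/-Sgo1-/+ replicate 6 together, the sum without Bub3, Pttg1 and Kif20a, and TTTGAA or TTCGAA as the CHR were added after the data were seen.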

Additional observations from a re-analysis of the deposited data

How the results depend on the processing

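In every alternative run, 0 of the mitotic genes and 0 of the 121 further genes were called. No paired analysis was possible because the labels give the groups no shared replicate numbers. Equal library sizes, which leave depth in the values, gave 72 genes called, 4 mitotic genes with an unadjusted P under 0.05 (Kif20a, Mad2l1, Spc25 and Bub1, against 9.64% of all genes tested at that setting), a median log2 fold change of -0.48 (-0.59 over all genes tested) and a log2 ratio of the summed level of -0.56. The DESeq2 test called 1 gene, which is no mitotic gene. The edgeR exact test gave 1 mitotic gene with an unadjusted P under 0.05 (Nuf2), against 4.92% of all genes tested. Thinning gave 2 with the edgeR quasi-likelihood test (Mad2l1 and Nuf2, against 5.88%), with a median of 0.29 (0.035 over all genes tested). With each library left out in turn, 0 to 1 mitotic genes had an unadjusted P under 0.05 with edgeR, against 3.36% to 8.33% of all genes tested. The median log2 fold change ran from -0.026 without replicate 6 (0.018 over all genes tested) to 0.35 without replicate 2 (0.040). The genes with groups apart numbered 6 to 11 of 37 (18.5% to 26% of all genes tested, since fewer libraries separate more often). Among all genes tested 0 to 1 were called (1 without replicate 5), and the log2 ratio of the sums ran from -0.035 to 0.13. Without replicates 2 and 6 together there was 1 gene with an unadjusted P under 0.05 with edgeR (Cdca8), against 3.65% of all genes tested. The median was then -0.0028 (0.026 over all genes tested), with groups apart in 12 of 37 genes (32.9% of all genes tested). On the gene strand alone CCAAT was in 51.6% of the promoters. Of 678 fold changes of single mitotic genes recomputed, 631 moved by less than 1 SE and 47 by more, 30 of those with equal library sizes. The 678 include the setting of the adjusted P alone, which keeps the fold changes of the main fit and so cannot move them. Low read totals limit all of these values, and the cause of the shifts was not tested.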
